A study of Mus musculus with 29 samples.

Results

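The mitochondrial ribosomal protein genes were examined in 3T3-L1 cells, a mouse fibroblast line of 1 origin that forms white adipocytes in culture. They were taken as every gene of the count table whose symbol began with Mrpl or Mrps followed by a digit. The rule found 78 of 11959 genes. Of these, 77 are protein coding, 48 with a large-subunit symbol (Mrpl) and 29 with a small-subunit symbol (Mrps), and 1, Mrpl48-ps, is a processed pseudogene that is given apart from the rest. Mrpl53 was not analysed here. The 29 samples formed 8 groups. Confluent preadipocytes of the same line received either 10 µM KDM5-C70 (C70), an inhibitor of the KDM5 histone demethylases, or DMSO (vehicle), from day -2 to day 0, and RNA was taken at days 0, 1, 2 and 7. There were 3 vehicle samples at each of days 0, 1 and 2 and 4 at day 7, and 4 C70 samples at every day. No compound was present after day 0. Cells collected after day 0 had been in a commercial differentiation medium from day 0 to at most day 2, and only those collected at day 7 also in an adipocyte medium, from day 2 on. The labels number the samples of a group but do not say whether they were separate cultures, so p-values measure only the spread between these samples, which may be technical.

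Mitochondria keep their own ribosome, built from ribosomal RNA encoded by mitochondrial DNA and from proteins encoded in the nucleus, made in the cytosol and imported. The small subunit holds the messenger RNA and decodes it, and the large subunit joins amino acids. This ribosome translates the few core subunits of the respiratory chain and ATP synthase that mitochondrial DNA encodes, while most other subunits come from nuclear genes. White preadipocytes enlarge their mitochondrial content as they become adipocytes.

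The promoters of some of these genes are shown because the members moved together. RefSeq windows of 300 bases (GRCm38.p6, 250 bases before to 50 after the transcription start) were matched by symbol for 68 of the 77 coding members, with 74 windows. Fixed letters were searched on both strands. CCGGAAG, the core bound by ETS factors such as GABP, stood in 25 of 74 member windows (33.8%), against 8.86% of all 32851 windows and 18.5% of the 11494 windows of genes in the count table. GCGCANGCG, the core bound by NRF1, stood in 16 of 74 (21.6%), against 6.25% of all windows and 14% of those in the table. AANATGGCG (YY1) stood in 11 windows (14.9%, against 2.38% and 5.32%), CACGTG (E box) in 7 windows of 5 members (9.46%, against 7.15% and 10.0%), TGACGTCA (CRE) in 2 (2.7%, against 1.79% and 3.07%) and TCAAGGTCA (estrogen-related receptors) in 0, against 0.423% and 0.252%. No match in a member window overlapped a match of another motif. A match is a description of letters and not of binding. Below are the window of the member with the largest rise (Mrpl12), the window of Mrps11, which overlaps in part with that of Mrpl46, a gene of the other subunit, the window of the member with the largest fall among those that passed at day 0 after C70 (Mrpl22), that of the member with the largest rise at day 1 (Mrpl49), and that of the only member that passed lower in vehicle at day 7 than at day 0 (Mrps6). Capitals mark matches to the motifs.
Mrpl12: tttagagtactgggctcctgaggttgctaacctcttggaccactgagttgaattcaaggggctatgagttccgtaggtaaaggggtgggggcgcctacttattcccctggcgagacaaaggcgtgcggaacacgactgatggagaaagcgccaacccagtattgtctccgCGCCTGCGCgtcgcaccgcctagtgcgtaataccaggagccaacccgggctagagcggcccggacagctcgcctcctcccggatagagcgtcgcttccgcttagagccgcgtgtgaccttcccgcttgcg
Mrps11: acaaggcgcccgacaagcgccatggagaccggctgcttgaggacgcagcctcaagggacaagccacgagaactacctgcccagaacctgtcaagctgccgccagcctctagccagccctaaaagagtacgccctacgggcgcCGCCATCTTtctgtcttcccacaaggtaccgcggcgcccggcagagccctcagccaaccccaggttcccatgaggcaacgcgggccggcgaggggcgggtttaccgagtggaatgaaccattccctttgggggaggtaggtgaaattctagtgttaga
Mrpl22: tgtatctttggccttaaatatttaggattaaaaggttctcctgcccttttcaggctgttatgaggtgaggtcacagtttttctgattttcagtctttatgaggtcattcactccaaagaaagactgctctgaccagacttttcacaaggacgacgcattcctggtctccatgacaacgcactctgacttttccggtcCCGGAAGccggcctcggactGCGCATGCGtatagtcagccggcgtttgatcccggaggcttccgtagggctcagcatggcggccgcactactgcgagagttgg
Mrpl49: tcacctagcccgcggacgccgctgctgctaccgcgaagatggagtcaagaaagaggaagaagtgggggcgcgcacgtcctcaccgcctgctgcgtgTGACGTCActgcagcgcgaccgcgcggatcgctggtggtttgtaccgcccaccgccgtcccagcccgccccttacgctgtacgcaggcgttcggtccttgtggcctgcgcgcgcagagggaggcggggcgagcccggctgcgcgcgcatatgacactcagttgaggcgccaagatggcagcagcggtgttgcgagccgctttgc
Mrps6: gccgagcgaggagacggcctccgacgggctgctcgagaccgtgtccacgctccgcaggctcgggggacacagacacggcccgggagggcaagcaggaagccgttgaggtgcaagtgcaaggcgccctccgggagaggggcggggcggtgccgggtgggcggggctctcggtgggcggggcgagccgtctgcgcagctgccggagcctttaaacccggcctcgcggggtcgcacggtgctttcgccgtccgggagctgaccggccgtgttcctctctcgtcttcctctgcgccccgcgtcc

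These windows are Mrpl12 at chr11:120484387-120484686 on the plus strand, Mrps11 at chr7:78782881-78783180 on the plus strand, Mrpl22 at chr11:58171414-58171713 on the plus strand, Mrpl49 at chr19:6057706-6058005 on the minus strand and Mrps6 at chr16:92058086-92058385 on the plus strand, each read 5′ to 3′ on the strand of its gene. Mrpl12 holds 1 match to the NRF1 letters, which begins 80 bases before the start. Mrpl22 holds the ETS core, 53 bases before its start, and the NRF1 letters, 33 bases before it. Mrpl49 holds the CRE letters, and Mrps6 holds none of the 6 motifs. The match in the Mrps11 window is AANATGGCG read from the opposite strand. Mrps11 (chr7:78783119-78792989, plus strand) and Mrpl46 (chr7:78775236-78783531, minus strand) lie head to head and overlap, and their RefSeq starts are 42 bases apart, so that 141 bases belong to both windows. The marked match lies in the part that is Mrps11's alone, and the Mrpl46 window holds no match.

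Total counts per sample ranged from 16320275 to 24037170. The adipocyte markers rose in vehicle cells (12 of 12 passed higher by day 7, with a median log2 rise of 7.42 from day 0) and the preadipocyte or fibroblast markers fell (10 of 10, median -3.63). Here and below, passed means an adjusted p (Benjamini-Hochberg, within the comparison, over all genes) under 0.05 by edgeR's quasi-likelihood test on the counts of all samples. Of markers of other cells, 1 of 5 for macrophages (Cd68), 1 of 4 for skeletal muscle (Des) and 0 of 4 for endothelial cells are in the table. A library stood apart before any comparison of treatments: at day 7, vehicle replicate 1 had a mean log2 level of the large-subunit genes of 1.39 above vehicle at day 0, when the other 3 vehicle samples had 1.02 to 1.07. Its cytosolic ribosomal protein genes were also high, with a mean log2 level of -0.1 against -0.63 to -0.46 in the others. At day 7, C70 replicate 2 (1.0 against 0.89 in each of the others) was high among C70 samples. Counts of members at day 7, and the values that leaving out vehicle replicate 1 moved most, are therefore also given without it.

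In vehicle cells, the level of the mitochondrial ribosomal protein genes increased at each step of differentiation. Their summed expression was 1890 ± 41.6 CPM (counts per 1000000 of the normalized library, mean ± SD, n = 3) at day 0, 2500 ± 58.6 (n = 3) at day 1, 3720 ± 98.5 (n = 3) at day 2 and 4300 ± 556 (n = 4) at day 7. Without vehicle replicate 1 the sum at day 7 was 4030 ± 98.5 CPM (n = 3). The sample sums of successive days did not overlap, and the lowest sum at day 7 was 3950 CPM against a highest of 3800 at day 2. By day 7, 75 of 77 members had passed higher and 1 lower than at day 0, where 43.0% and 42.3% of all genes tested passed higher and lower. The median log2 fold change of the members was 1.09, and 0.98 without vehicle replicate 1 of day 7, when 74 passed higher (43.0% of all genes). These are shares of RNA in a culture, so more cells of a type and more RNA per cell cannot be told apart.

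The steps differed. Between days 0 and 1, 54 members passed higher and 5 lower with a median of 0.37 (background 35.0% higher, 35.1% lower). Between days 1 and 2, 66 passed higher and 1 lower with a median of 0.55 (31.2% and 30.5%). Between days 2 and 7, 44 passed higher and 7 lower with a median of 0.23 (36.3% and 36.3%). Without vehicle replicate 1 these were 39 and 12 with a median of 0.16 (37.3% and 35.7%). From day 0 to day 7 the median was 1.07 for the 48 large-subunit genes and 1.2 for the 29 small-subunit genes, and from day 2 to day 7 it was 0.18 and 0.3 (0.11 and 0.18 without vehicle replicate 1). By mean log2 level at day 7 relative to vehicle at day 0, the order was the other way, with 1.13 for the large and 1.07 for the small subunit. Without vehicle replicate 1 these means were 1.04 and 0.98. The difference between subunits over these days was not tested. Of the 48 genes whose protein has a bacterial counterpart, 47 passed higher, with quartiles of 0.87 and 1.32, and of the 28 found only in mitochondrial ribosomes 27 did, with quartiles of 1.0 and 1.56. The median over all genes was 0.0083.

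**Figure D1:**
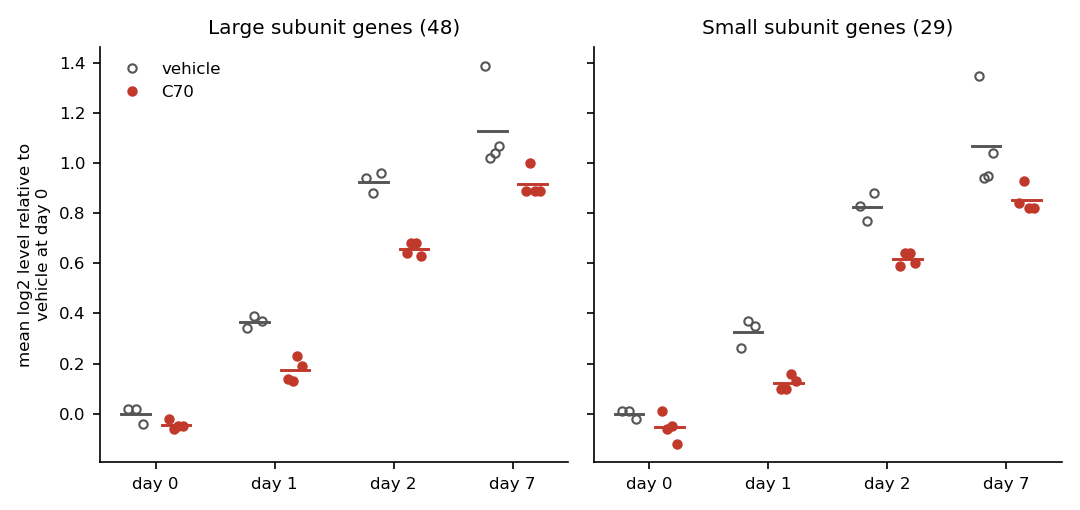
Mean log2 level of the 48 large-subunit and 29 small-subunit genes in each of the 29 samples, relative to the mean of vehicle at day 0 (y axis, log2) by day (x axis). Points are samples and bars group means; vehicle replicate 1 at day 7 is the highest point of each panel, at 1.39 for the large and 1.35 for the small subunit, and the C70 points lie under all vehicle points at days 1, 2 and 7.

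Mrpl12 rose the most. It encodes the stalk protein L7/L12, which recruits translation factors to the large subunit and has also been described as a partner of the mitochondrial RNA polymerase. Its CPM in vehicle cells was 34.7, 32.6 and 30.9 on day 0, with 62.5, 69 and 64 a day later, 173, 162 and 173 on day 2, and 243, 167, 180 and 184 by day 7. No day overlapped with day 0 or day 1, while days 2 and 7 did overlap. The log2 fold change of Mrpl12 from day 0 to day 7 was 2.56 (SE 0.0909, adjusted p = 7.48e-22 by edgeR), with steps of 0.99 at day 1 and 1.38 at day 2.

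Mrpl46 and Mrpl38, proteins of the central protuberance of the large subunit, followed it with log2 fold changes of 2.04 (SE 0.0993) and 1.95 (SE 0.0704) from day 0 to day 7. Mrpl46 was late: it did not pass between days 0 and 1 (0.25, adjusted p = 0.0519 by edgeR), and then rose by 0.96 at day 2 and a further 0.83 at day 7. In the small subunit, Mrps7, a protein of the head near the path of transfer RNA, rose by 1.9 (SE 0.0846), and Mrps22 and Mrps28 rose by 0.99 and 0.96 between days 1 and 2. Mrps28 was at 7.41, 8.63 and 7.85 CPM on day 0, with 5.75, 6.95 and 5.61 a day later, 12.4, 10.1 and 13.2 on day 2, and 33.2, 23.8, 22.8 and 24.2 by day 7. It was lower at day 1 than at day 0 in every sample (log2 fold change -0.38, adjusted p = 0.03 by edgeR), before it rose.

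The 5 members that passed lower at day 1 were Mrpl23, Mrpl54, Mrpl58, Mrps28 and Mrpl48. Mrpl58, a peptidyl-tRNA hydrolase built into the large subunit, fell by 0.39 on the log2 scale (SE 0.0925) and Mrpl54 fell by 0.41 (SE 0.123). Mrpl54 then rose by 0.93 (SE 0.112) between days 2 and 7. Its day 7 values in vehicle were 44.8, 27.3, 29.3 and 30.2 CPM, of which the first belongs to the library that stood apart.

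Other members turned over. Mrpl49, whose protein is found only in mitochondrial ribosomes, had the largest rise at day 1 (log2 fold change 1.14, SE 0.0673) and then fell by 0.52 (SE 0.0594) between days 2 and 7. Its vehicle CPM was 31.3 to 34.3 at day 0, 68 to 75.6 at day 1, 93.9 to 100 at day 2 and 62.8 to 75.6 at day 7. Mrps25 had the largest fall between days 2 and 7, with a log2 fold change of -0.73 (SE 0.0704).

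Mrps6, the small-subunit homologue of bacterial S6, was the exception to the rise. It was at 52.3, 48.8 and 51.8 CPM on day 0, with 60.5, 57.8 and 58.1 a day later, 42.7, 38.5 and 41.6 on day 2, and 32.2, 23.1, 22 and 25.2 by day 7. Every day 7 sample lay below every earlier one. The log2 fold change of Mrps6 from day 0 to day 7 was -1.0 (SE 0.0839, adjusted p = 2.46e-12 by edgeR). Per kilobase of exon it had the highest level of all members in vehicle at day 0, at 33.3 ± 1.22 CPM per kb (n = 3), followed by Mrps21 at 30.6 ± 1.63. The lowest were Mrpl48 at 1.35 ± 0.102 and Mrpl23 at 1.24 ± 0.0954, and the median member was at 9.78. Mrps6 (chr16:92058270-92112227, plus strand) overlaps Slc5a3 (chr16:92058322-92087473), a sodium and myo-inositol transporter on the same strand, which fell by 1.73 over the same days (SE 0.116), so reads in the stretch they share cannot be told apart.

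**Figure D2:**
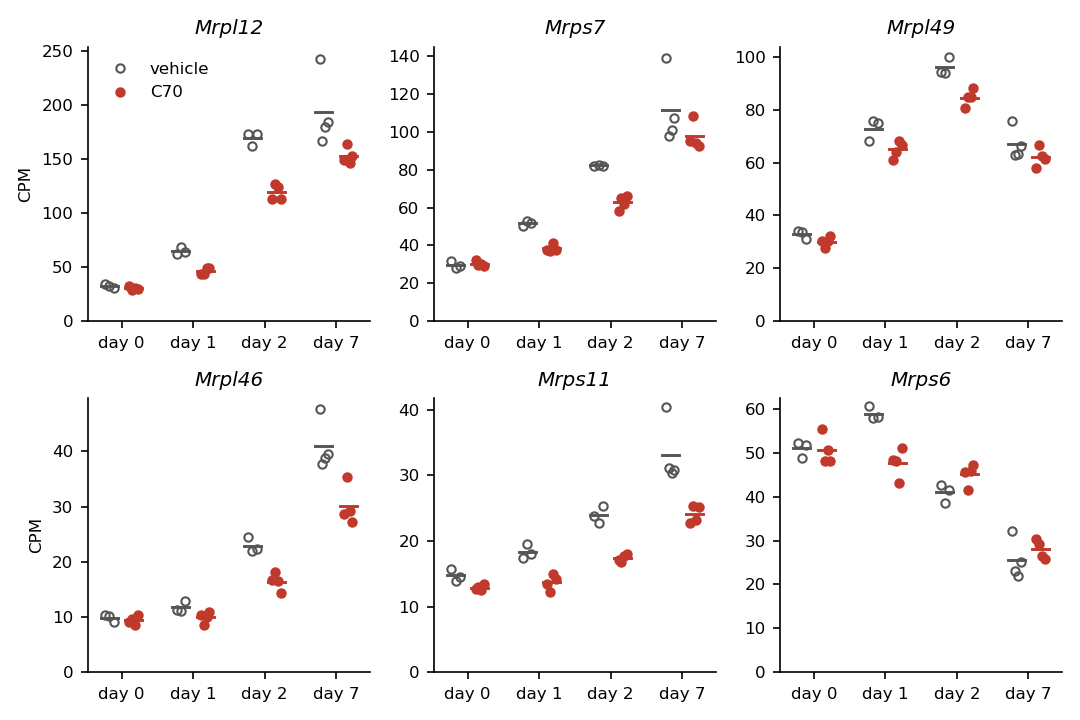
CPM (y axis, linear and from 0) of Mrpl12, Mrps7, Mrpl49, Mrpl46, Mrps11 and Mrps6 by day (x axis). Open points are vehicle samples, filled points C70 samples and bars group means; at day 2 the C70 points lie under the vehicle points for every gene shown except Mrps6.

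After C70, the members were little changed at day 0, when the compound had been present for the preceding days. Here 4 of 77 passed lower and 0 higher by edgeR (1 was higher at an unadjusted p under 0.05, and DESeq2 also gave 4 and 0), where 8.91% of all genes tested passed lower and 10.9% higher. The median log2 fold change of the members was -0.05. The 4 were Mrpl22 (-0.28, SE 0.0843), Mrpl58 (-0.25, SE 0.0854), Mrpl13 (-0.19, SE 0.0674) and Mrps17 (-0.15), and none was lower by more than 20%, the fold threshold of the study's methods. Mrpl58 was at 13.7, 15 and 14.7 CPM in vehicle and 11.7, 12.5, 12.5 and 12 in C70 samples, and Mrpl22 at 14.1, 15.6 and 13.3 against 11.4, 11.3, 12.6 and 11.7. Groups did not overlap for either gene. The count at day 0 moved both ways: 1 or 2 members passed when any 1 of the day 0 samples was left out, 8 without vehicle replicate 1 of day 7, which shares the estimate of spread, and 9 (8 lower and 1 higher) by limma with sample weights. No share of all genes is given for these other fits.

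From day 1 on, after the compound had been removed, the members were lower in C70 cells. At day 1, 38 of 77 passed lower and 0 higher (0 higher at an unadjusted p under 0.05 by edgeR, and 0 by DESeq2 and by limma), where 19.7% of all genes passed lower and 21% higher. The members' median log2 fold change was -0.21. The summed level of the members was 2500 ± 58.6 CPM in vehicle (n = 3) and 2180 ± 54.5 in C70 cells (n = 4). In 46 members every C70 sample was below every vehicle sample (background 23.8%), and in 0 above (24.4%). The call was joined by a fall of more than 20% in 9 members (background 7.8%).

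At day 2, 49 passed lower and 0 higher (0 higher at an unadjusted p under 0.05, 0 by DESeq2, and 1 by limma with sample weights, which gave 62 lower), against a background of 25.4% lower and 25.3% higher, and the median was -0.25. The sum was 3720 ± 98.5 CPM in vehicle and 3130 ± 58.5 in C70 cells, 60 members had every C70 sample below (background 29%) and 0 above (28.2%), and 25 were lower by more than 20% (background 13.6%). At day 7, 51 passed lower and 0 higher (0 higher at an unadjusted p under 0.05, 0 by DESeq2, and 1 by limma with sample weights, which gave 40 lower), against a background of 18.8% lower and 22.3% higher, and the median was -0.21. In 29 members every C70 sample was below (background 12.8%) and in 0 above (16.5%), and 17 were lower by more than 20% (background 4.85%). Without vehicle replicate 1, 34 members passed lower and 1 (Mrps6) higher at day 7 (background 18.1% and 23.1%). All 34 were among the 51, and the median was -0.11. Of the 77, 4 were lower by more than 20%, near the 4.85% of all genes that were so with all samples. A fit of the day 7 samples alone, without the spread of the other days, gave 22 lower and 0 higher, and 17 and 0 with a replicate block. With C70 replicate 2 left out as well as vehicle replicate 1, 43 passed lower and 1 higher, with a median of -0.14. For the counts by DESeq2 and limma, no share of all genes is given. The same holds for the fits of day 7 alone and the fit without both libraries. All these counts therefore have no background beside them. Mean log2 levels at day 7 were 0.99 to 1.06 in the 3 remaining vehicle samples and 0.86 to 0.97 in the 4 C70 samples, which do not overlap.

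**Figure D3:**
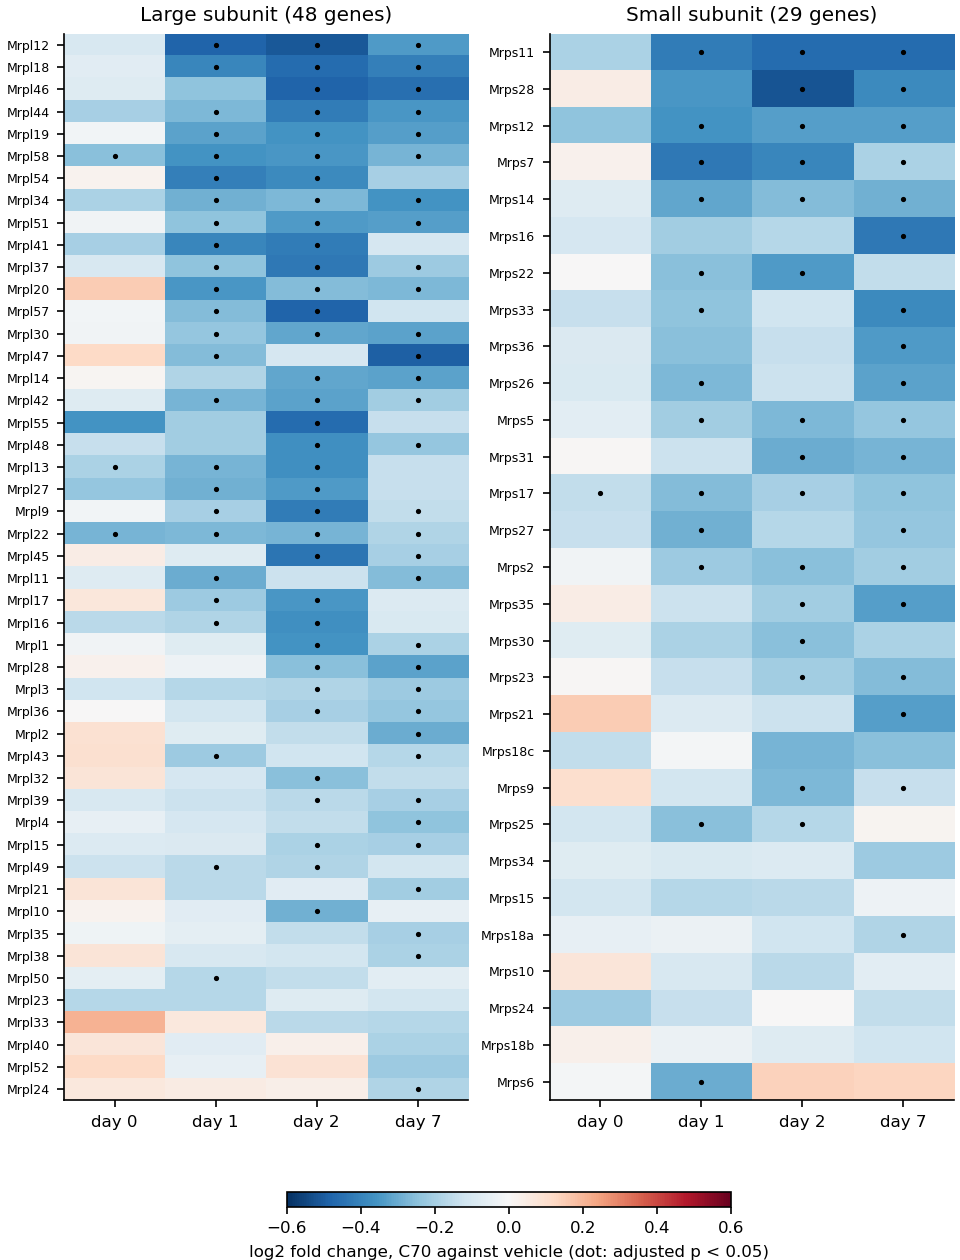
Log2 fold change of C70 against vehicle for each of the 77 coding members (rows) at days 0, 1, 2 and 7 (columns). Colour gives the fold change, blue for lower after C70, and dots mark members that passed; from day 1 on, blue fills nearly all cells of both subunits, while day 0 is mixed.

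Large- and small-subunit genes fell together at day 1, when 25 of 48 large-subunit and 13 of 29 small-subunit genes passed lower, with medians of -0.2 and -0.21. At day 2, 34 large-subunit genes passed lower (median -0.28) and 15 small-subunit genes (median -0.2), of which 20 and 5 were lower by more than 20%. In vehicle, the mean log2 level of the large-subunit genes exceeded that of the small-subunit genes at day 2 by 0.105, 0.105 and 0.08, each relative to day 0. In C70 samples, the excess was 0.048, 0.039, 0.038 and 0.03. The groups did not overlap at day 2, and they did at days 0, 1 and 7. At day 7, 32 large-subunit and 19 small-subunit genes passed lower with medians of -0.2 and -0.23, and without vehicle replicate 1 19 of 48 and 15 of 29 did, with medians of -0.11 and -0.15. When Mrps30 and Mrps18a, which carry small-subunit symbols but sit in the large subunit, were counted there and Mrps36 was left out, 35 of 50 and 14 of 26 passed lower at day 2, with medians of -0.28 and -0.21. Members with a bacterial counterpart and those found only in mitochondrial ribosomes had medians of -0.19 and -0.23 at day 1, -0.25 and -0.23 at day 2 and -0.21 each at day 7, where they were -0.12 and -0.11 without vehicle replicate 1.

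Of the members, 20 passed lower on each of days 1, 2 and 7 (background 5.33%), 13 of the large and 7 of the small subunit. These were Mrpl9, Mrpl12, Mrpl18, Mrpl19, Mrpl20, Mrpl22, Mrpl30, Mrpl34, Mrpl37, Mrpl42, Mrpl44, Mrpl51, Mrpl58, Mrps2, Mrps5, Mrps7, Mrps11, Mrps12, Mrps14 and Mrps17. With vehicle replicate 1 of day 7 left out, 20 members also passed on each of these days (5.8% of all genes), of which 16 were among those named, and Mrpl9, Mrpl22, Mrpl42 and Mrps7 were not. With all samples, a further 31 passed lower on 2 of these days, 16 on 1 day and 10 on none. No share of all genes is given for these counts. The 10 were Mrpl23, Mrpl33, Mrpl40, Mrpl52, Mrps10, Mrps15, Mrps18b, Mrps18c, Mrps24 and Mrps34.

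Mrpl12, the stalk protein, was at 43.4, 43.5, 49.8 and 49.7 CPM after C70 at day 1, against 62.5, 69 and 64 in vehicle. At day 2 it was at 113, 127, 124 and 113 CPM after C70, against 173, 162 and 173. At day 7 it was at 149, 164, 146 and 153 CPM after C70, against 243, 167, 180 and 184. No day from 1 to 7 had overlapping groups, and day 0 did. The log2 fold change was -0.48 (SE 0.086, adjusted p = 3.55e-05 by edgeR) at day 1, -0.51 (SE 0.08, adjusted p = 3.67e-06) at day 2 and -0.34 (SE 0.0742, adjusted p = 0.000463) at day 7, where it was -0.21 without vehicle replicate 1 (adjusted p = 0.00122).

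Mrps11 and Mrpl46, the head-to-head pair whose windows overlap, both fell at days 2 and 7. Mrps11 encodes a protein of the platform of the small subunit. At day 7 it was at 40.4, 31.1, 30.4 and 30.8 CPM in vehicle and 22.7, 25.4, 23.2 and 25.2 after C70, with no overlap (log2 fold change -0.46, SE 0.0731, adjusted p = 7.88e-06 by edgeR). Without vehicle replicate 1 the value was -0.35 (adjusted p = 1.62e-05). Mrps11 had log2 fold changes of -0.42 at day 1 and -0.46 at day 2, which also passed.

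Mrpl46 was at 24.5, 22 and 22.3 CPM in vehicle at day 2 and at 16.8, 18.1, 16.5 and 14.3 after C70. At day 7 it was at 47.7, 37.8, 38.8 and 39.6 CPM in vehicle and at 28.6, 35.3, 29.3 and 27.3 after C70. Neither day had overlapping groups. Its log2 fold change of -0.24 on day 1 did not pass (adjusted p = 0.0789 by edgeR), and those of -0.48 (SE 0.0951) on day 2 and -0.45 (SE 0.0811) on day 7 did. The day 7 value was -0.36 with vehicle replicate 1 left out (adjusted p = 0.00018). The sources used here do not say how reads over both genes were assigned, and 413 bases of the 2 genes overlap on opposite strands.

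In the decoding subunit, Mrps7 was at 50.3, 53.1 and 51.8 CPM in vehicle and 37.5, 37.2, 41.3 and 37.8 after C70 at day 1 (log2 fold change -0.43, SE 0.0824, adjusted p = 0.000101 by edgeR). Its log2 fold change was 0.03 at the end of treatment, which did not pass, and at day 7 the value of -0.19 was -0.06 without vehicle replicate 1 and no longer passed (adjusted p = 0.335). Mrps12, homologue of the bacterial decoding protein S12, had log2 fold changes of -0.36, -0.33 and -0.33 on days 1, 2 and 7, which all passed, and the last was -0.2 without vehicle replicate 1 (adjusted p = 0.0414). Mrps28 had the largest fall at day 2, with 12.4, 10.1 and 13.2 CPM in vehicle and 7.52, 8.04, 9.34 and 8.15 after C70 (log2 fold change -0.52, SE 0.133, adjusted p = 0.0015 by edgeR).

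Mrpl47 had the largest fall at day 7. Its protein is the homologue of bacterial L29, beside the exit of the peptide tunnel. It was at 23.4, 23, 22.5 and 20.7 CPM in vehicle at day 7 and 15.9, 15.9, 13.9 and 18 after C70, with no overlap. The log2 fold change was -0.49 (SE 0.0817, adjusted p = 1.47e-05 by edgeR) and changed little without vehicle replicate 1 (-0.46). At day 1 Mrpl47 had also passed lower (-0.26, SE 0.0933, adjusted p = 0.0245), with no overlap (13.4 to 15.3 CPM against 10.7 to 13). At day 2 the groups overlapped (20.8 to 21.3 against 17.1 to 21.4 CPM), and the fold change of -0.1 did not pass (adjusted p = 0.322).

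Members with special places are given singly, and differences between them were not tested. Of the 3 paralogs of bacterial S18, Mrps18b and Mrps18c passed on no day, with log2 fold changes between -0.12 and 0.03 for Mrps18b and between -0.28 and -0.01 for Mrps18c, and Mrps18a passed at day 7 (-0.18, SE 0.0617), though not without vehicle replicate 1 (-0.08, adjusted p = 0.175). Mrps30 passed at day 2 (-0.25, SE 0.0876), and Mrpl11, the base of the stalk, at days 1 and 7 (-0.3 and -0.26, the latter -0.16 without vehicle replicate 1, adjusted p = 0.0462). Mrps36, which is known as a subunit of the oxoglutarate dehydrogenase complex, passed at day 7 (-0.34, SE 0.0987, and -0.27 without that library). The pseudogene Mrpl48-ps was at 1.4 to 2.0 CPM in vehicle at day 0 and passed after C70 on no day, and reads of Mrpl48 and Mrpl48-ps may have been exchanged.

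Mrps6 changed its response between days. At day 1 it was at 60.5, 57.8 and 58.1 CPM in vehicle and 48.4, 48.2, 43.1 and 51 after C70, with no overlap (log2 fold change -0.3, SE 0.0794, adjusted p = 0.00297 by edgeR). At day 2 it was at 42.7, 38.5 and 41.6 CPM in vehicle and 45.7, 41.6, 45.9 and 47.1 after C70, and the groups overlapped (0.14, adjusted p = 0.157). The change in its response from day 1 to day 2 was 0.44 (SE 0.114, adjusted p = 0.00563). At day 7 the log2 fold change of Mrps6 was 0.13 (adjusted p = 0.214) and 0.26 without vehicle replicate 1 (adjusted p = 0.0029). Slc5a3, which it overlaps, had log2 fold changes of -0.07, 0.31 and 0.29 at days 1, 2 and 7, the last of which was 0.15 without vehicle replicate 1.

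When the response was compared between days directly, 9 members had a lower value at day 1 than at day 0 and 0 a higher one (0 at an unadjusted p under 0.05 by edgeR, and 0 by DESeq2), against a background of 8.81% of genes with a lower and 11.1% with a higher value. The share of members, 9 of 77, is near that of all genes, and the count ran from 4 to 14 when 1 library was left out. The largest were Mrpl20, with a difference of -0.5 (SE 0.122), and Mrps7, with -0.46 (SE 0.12). Mrpl20 was at 20.6, 21.2 and 20.2 CPM in vehicle and 25.1, 20.7, 22.9 and 22.9 after C70 at day 0, then at 38.5, 38.2 and 39.4 against 29, 28.9, 32.6 and 30.9 at day 1. Between days 1 and 2, 3 members had a lower value and 1 (Mrps6) a higher one (8.77% and 11.1%), and these 4 calls became 1 to 6 when 1 library was left out. Mrpl45, with a difference of -0.36 (SE 0.12), was at 35.3 to 36.3 CPM in vehicle and 33.7 to 34.1 after C70 at day 1, and at 62.1, 55.5 and 59.9 against 41.5, 41.1, 47.1 and 44.9 at day 2. The value of Mrpl9, -0.22, passed narrowly (adjusted p = 0.0496 by edgeR). Under other settings the call was lost in 7 cases for Mrpl45 and in 25 for Mrpl9.

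Between days 2 and 7, 5 members had a smaller fall and 1, Mrpl47 (difference -0.39, SE 0.118), a larger one, where 16.5% and 13.9% of genes passed higher and lower. Mrpl57, with a difference of 0.36 (SE 0.111), was at 33.7, 30.7 and 35.2 CPM in vehicle and 23.1, 24, 25 and 23.2 after C70 at day 2. At day 7 it was at 39.3, 29.1, 27.3 and 31.9 against 28.2, 31.2, 29.7 and 28.3, and the groups overlapped. Mrpl16 had a difference of 0.28 (SE 0.0775). Without vehicle replicate 1, 18 members (23.4%) had a smaller fall at day 7 than at day 2 and 1 a larger one. In that fit 18.9% and 16.2% of all genes passed higher and lower, so the share of members is near that of all genes. The count rests on that library.

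The time courses of the members were alike across the 8 group means, which share libraries and normalization. Pearson's r of a member's log2 level with the mean of the other members was above 0.9 for 60 of 77, with a median of 0.968. Among the 11882 genes that are not members, r with the mean of the members was above 0.9 for 13.2%. The lowest values were -0.817 for Mrps6, -0.157 for Mrpl52, 0.384 for Mrpl23 and 0.403 for Mrpl54. The 25 members with CCGGAAG in the promoter window had median log2 fold changes after C70 of -0.22 and -0.21 at days 1 and 2, and the 43 without it had -0.19 and -0.25. For GCGCANGCG these were -0.19 and -0.3 in 16 members, and -0.21 and -0.2 in 52. These differences between members were not tested.

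The other genes of mitochondrial translation are set beside shares of 19.7%, 25.4% and 18.8% of all genes that passed lower at days 1, 2 and 7. Of 5 further mitoribosome proteins with other names, 1, 2 and 3 passed lower at days 1, 2 and 7 and 0 higher. Ptcd3 passed on all 3 days (-0.15, -0.21 and -0.1), Dap3 at day 2 (-0.22), and Chchd1 (-0.33) and Aurkaip1 (-0.21) at day 7, while Gadd45gip1 passed on no day (0.06, 0.08 and -0.17). Chchd1 (-0.2) and Ptcd3 (-0.1) also passed at day 7 with vehicle replicate 1 left out, and Aurkaip1 did not (-0.098, adjusted p = 0.109). Of 15 translation factors, 5, 9 and 4 passed lower, with medians of -0.12, -0.2 and -0.094. The largest falls among them were those of Mtif3, an initiation factor, at day 2 (-0.49) and Tsfm, an elongation factor, at day 1 (-0.48). Of 20 mitochondrial aminoacyl-tRNA synthetases, 9, 14 and 3 passed lower, with medians of -0.14, -0.28 and -0.051, and of 28 assembly factors, 10, 11 and 8 passed lower, with medians of -0.11, -0.1 and -0.15. Of the assembly factors, 2 passed higher on day 1 and 3 on day 2. A single gene each of the factors, synthetases and assembly factors passed higher on day 7. The 3 synthetases that passed lower at day 7 are a smaller share than that of all genes. When vehicle replicate 1 was left out, 3 translation factors, 3 synthetases and 9 assembly factors passed lower at day 7 (18.1% of all genes). Their medians were -0.066, 0.0086 and -0.072.

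Other gene lists are given for comparison, with no test between lists. Of 75 nuclear subunits of the respiratory chain and ATP synthase, 33, 59 and 66 passed lower on days 1, 2 and 7 (medians -0.17, -0.33 and -0.31), and 51 on day 7 without vehicle replicate 1 (median -0.18). Of 7 messenger RNAs encoded by mitochondrial DNA that are in the table, 0 and 2 passed lower on days 1 and 2 (medians 0.025 and 0.0028), and on day 7 all 7 passed higher, with a median of 0.47 (0.43 without that library). Of 79 cytosolic ribosomal protein genes, 2 passed lower at day 1, 2 lower and 14 higher at day 2, and 5 lower and 1 higher at day 7, with medians of -0.028, 0.093 and -0.042. The day 7 direction of the cytosolic genes turned without vehicle replicate 1, when 2 passed lower and 30 higher with a median of 0.1. In vehicle from day 0 to day 7 these cytosolic genes had a median of -0.45, with 68 passing lower, against 1.09 for the mitochondrial ones.

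**Figure D4:**
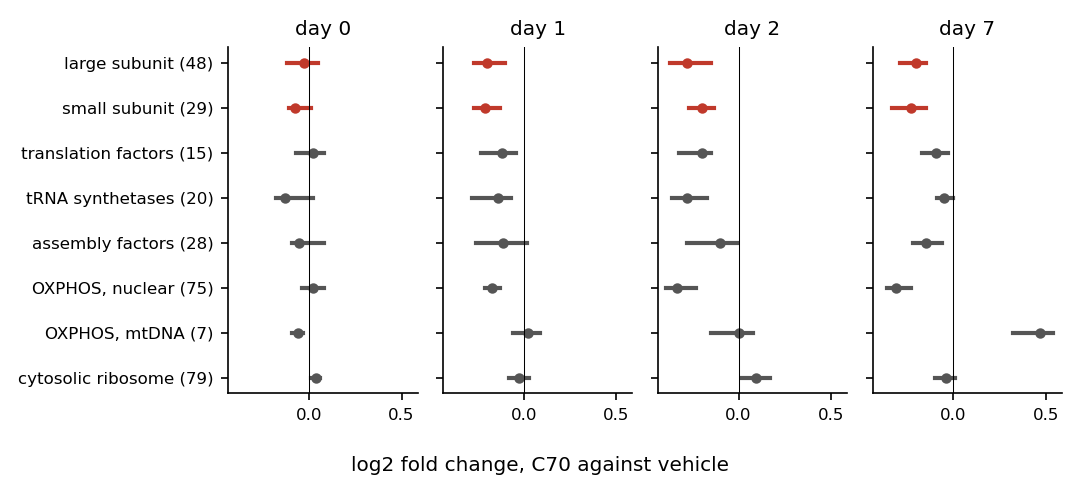
Median log2 fold change of C70 against vehicle (points) with the range from lower to upper quartile of genes (lines) for the large and small subunit (red) and for other gene lists (grey), with the number of genes in parentheses, at days 0, 1, 2 and 7. At day 7 the 7 mitochondrial messenger RNAs lie to the right of 0 at 0.47, and both subunits lie to the left at -0.2 and -0.23, with all samples included.

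Markers of cell state also changed after C70, and at day 7 the adipocyte and proliferating cell markers went both ways. At days 1 and 2, 10 of 10 markers of proliferating cells passed lower after C70. Their summed levels were 559 to 615 CPM against 708 to 803 in vehicle at day 1, and 442 to 462 against 680 to 697 at day 2. By day 7, 1 of them passed lower and 2 higher (1 and 1 without vehicle replicate 1), with 72.6 to 79.9 CPM against 81.5 to 94.1. Of 12 adipocyte markers, 10 passed lower and 1 (Plin4, log2 fold change 0.26) higher at day 1 (4060 to 4150 CPM against 6030 to 6420) and 11 at day 2 (15800 to 17500 against 26800 to 27600), and at day 7, 3 passed lower and 4 higher (31000 to 34100 against 29000 to 33500). With vehicle replicate 1 left out, 3 adipocyte markers passed lower and 6 higher, and the vehicle range of 29000 to 30700 CPM lay below that of C70 samples. Preadipocyte or fibroblast markers passed higher in 7, 10 and 10 of 10 cases at days 1, 2 and 7, with sums of 15700 to 17100 CPM against 14900 to 16300, 9230 to 10000 against 5960 to 6150, and 8250 to 9700 against 4000 to 5320. Among them Col1a1 passed lower at day 1 (-0.35). Cd68 was at 18.7 to 19.8 CPM after C70 at day 0 against 1.13 to 1.67 in vehicle, at 13.6 to 15.1 against 1.74 to 2.01 a day later and at 6.35 to 6.94 against 1.33 to 1.75 on day 2, which all passed, and at 1.06 to 2.79 against 1.92 to 2.69 by day 7. Des also passed higher on days 0, 1 and 2 (log2 fold changes 0.86, 1.51 and 0.47) and not on day 7 (-0.18), with 5.45 to 7.24 CPM after C70 on day 1 against 1.83 to 2.58. The part of these changes in the levels of the mitochondrial ribosomal protein genes was not tested.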

How the data were processed

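RNA was sequenced from 29 samples of 3T3-L1 cells. Per the labels, the libraries were strand-specific and made with a messenger RNA kit, while the study's text speaks of total RNA. Reads were aligned by the authors to GRCm38 (Ensembl release 97) using STAR 2.7.2a, and the submitters' processing notes also name edgeR 3.26.8. The deposited file bears the word normalized in its name and holds unscaled counts, all whole, of 11959 genes. The counting program, its use of strand and its filter are not given in the sources used here. Counting rules can change genes that overlap others or have pseudogenes. Symbols and gene positions came from GENCODE M21 (GRCm38) and all gene IDs matched.

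Counts were scaled with trimmed-mean-of-M-values (TMM) factors of 0.8982 to 1.081 and fitted as group means over all samples by edgeR 4.0.16 (quasi-likelihood test, two-sided, R 4.3.3), with p-values adjusted by Benjamini-Hochberg over all genes of each comparison. Log2 levels used a prior count of 2. The alternatives were DESeq2 1.42.0, limma 3.58.1, other scalings, filters, a separate fit for each day, a replicate block and leaving out each library. On simulated data for C70 at day 2, 98.5% of 200 genes changed 2-fold among 11959 were recovered with 7 false calls. The members' changes at day 2 were smaller (median log2 fold change -0.25, lowest -0.52). This recovery therefore does not give the share of such changes that would be called.

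Members named were the 3 largest rises and falls that passed in each comparison (2 for differences of response), members with a known special place, and the highest and lowest levels per length. Members and lists were chosen with earlier results of these data known. The grouping by bacterial counterpart was corrected for 4 genes (Mrpl47, Mrpl55, Mrps24 and Mrps28) after seeing the data. Promoter windows came from RefSeq (GRCm38.p6). Proteins and cell assays were not analysed here.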

Additional observations from a re-analysis of the deposited data

Results flagged for a closer look

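In groups of 4 samples, 160 combinations of a named member or a level and a group were examined for a sample far from the other 3. Such a sample was found in 16, where chance would give about 8 if the combinations were independent. They are not, since many share a library, so 16 against 8 does not measure an excess. Of the 16, 11 were in vehicle replicate 1 at day 7, each the highest of its group. Its CPM was 93.7 for Mrpl16 (80.7 to 82.9 in the other 3), 85.9 for Mrpl20 (61.9 to 63.6), 75.7 for Mrpl45 (51.1 to 53.1), 44.8 for Mrpl54 (27.3 to 30.2), 40.4 for Mrps11 (30.4 to 31.1), 40.5 for Mrps12 (27.6 to 29.6), 119 for Mrps18a (92.4 to 96.1), 62.7 for Mrps21 (41.8 to 44.1), 41.8 for Mrps22 (33.3 to 34.2) and 33.2 for Mrps28 (22.8 to 24.2), and the mean log2 level of the large subunit was 1.39 (1.02 to 1.07). In C70 replicate 2 at day 7, Mrps7 was at 108 CPM (92.6 to 94.9), the mean log2 level of the large subunit was 1.0 (0.89 in each of the others) and that of the small subunit 0.93 (0.82 to 0.84). Mrps7 was at 41.3 CPM in C70 replicate 3 at day 1 (37.2 to 37.8), and Mrps18a at 75.5 in C70 replicate 2 at day 2 (64.8 to 66.2).

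The response to C70 differed between days by the test of the difference itself for Mrpl20 (-0.5) and Mrps7 (-0.46) from day 0 to day 1, for Mrpl45 (-0.36), Mrpl9 (-0.22) and Mrps6 (0.44) from day 1 to day 2, and for Mrpl16 (0.28), Mrpl47 (-0.39) and Mrpl57 (0.36) from day 2 to day 7. Each is a difference of log2 fold changes among the named members. The differences between days 0 and 1, and between days 1 and 2, share the samples of a day.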

How the results depend on the processing

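Over 29 fits that each left out 1 library, the number of members that passed ranged from 1 to 8 at day 0 (4 with all samples), 26 to 44 at day 1 (38), 38 to 60 at day 2 (49) and 35 to 60 at day 7 (51). It ranged from 4 to 14 for the change in response from day 0 to day 1 (9), 1 to 6 from day 1 to day 2 (4) and 6 to 19 from day 2 to day 7 (6), and in vehicle from 52 to 63 (day 1 against 0), 65 to 70 (day 2 against 1), 75 to 76 (day 7 against 0) and 44 to 55 (day 7 against 2). Without vehicle replicate 1 of day 7 the counts were 8 at day 0, and 14 and 19 for the changes from day 0 to 1 and from day 2 to 7. Without any single day 0 sample 1 or 2 members passed at day 0. The change from day 0 to 1 fell to 5 without vehicle replicate 3 or C70 replicate 1 of day 0 or vehicle replicate 2 of day 1, and to 4 without C70 replicate 1 of day 1. The change from day 1 to 2 fell to 2 without vehicle replicate 1 or 3 or C70 replicate 1 or 4 of day 1, and to 1 without vehicle replicate 1 or 3 of day 2. With both day 7 libraries that stood apart left out, chosen after seeing the data, 9 members passed at day 0, and 17 and 17 for the changes from day 0 to 1 and from day 2 to 7. With a fall of more than 20% or a rise of more than 25% required as well, 0, 9, 25 and 17 members passed at days 0, 1, 2 and 7, and 4, 2 and 2 for the 3 changes in response. Limma with sample weights gave 9 at day 0 and 15, 7 and 20 for the changes, and upper-quartile factors gave 5 for the first. A separate fit for each day gave 22 at day 7. Whether the replicate numbers pair samples is not known. Correlations of deviations between samples of the same number and day ran from -0.205 to 0.214, with too few samples to settle it. With a replicate block, separate fits gave 9 at day 0 and 17 at day 7, and the fit of all samples 51 at day 7. No share of all genes is given beside these counts, and the cause of their differences was not tested. The largest changes of each comparison, 40 values of single members, kept direction and side of the threshold in 1493 of 1543 fits and lost it in 50, with 0 reversals. Other values of named members, such as those of Mrps7 and Mrps18a at day 7, were not among them. Losses among the 40 fell on Mrpl9 (25 settings) and Mrpl45 (7) for the change from day 1 to 2, on Mrpl13 (8), Mrpl58 (8) and Mrpl22 (1) at day 0, and on Mrpl23 (1) for vehicle day 1. Medians were labelled as moved in 27 of 874 fits and as reversed in 0. A median near 0 could still change sign. For the change from day 2 to 7, that of the small-subunit genes was -0.01 with all samples. It was 0.05 without vehicle replicate 1 of day 7. The lowest total, 16320275 counts, may limit the precision of the least expressed members, and no smaller depth was tried.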
